A study of Mus musculus with 54 samples.

Results

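The genes described here are 8 of the 24421 in the count table, picked by name: F3 (tissue factor), Thbd (thrombomodulin), Procr (the endothelial protein C receptor), Plaur (the urokinase receptor), Plau (urokinase), Plat (tissue plasminogen activator), F2r (the thrombin receptor PAR1) and F2rl2 (the thrombin receptor PAR3). They were measured in hematopoietic stem cells (HSC) of mice that received dmPGE2 or vehicle with or without irradiation. Earlier results were known when the genes were picked. The genes were chosen by a contrast in which irradiated HSC at 1 h held far more F3 and Plaur after dmPGE2 than after vehicle, so values of that contrast are given as a description.

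Tissue factor starts coagulation by binding factor VII at the cell surface, and the cascade ends in thrombin, which cleaves fibrinogen and also activates protease-activated receptors (PARs) on cells. Thrombomodulin turns thrombin towards protein C, and the endothelial protein C receptor presents protein C for that cleavage. Urokinase and tissue plasminogen activator convert plasminogen to plasmin, and the urokinase receptor holds urokinase on the membrane. In bone marrow, the protein C receptor is a surface marker of HSC, and these receptors have been linked to the retention and mobilization of HSC.

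The series comprised 54 libraries from HSC of Fgd5 mice on a C57BL/6 background, in which ZsGreen fluorescence reports the Fgd5 locus. HSC were sorted by a wide SLAM-LSK gate together with ZsGreen. All mice received 1 subcutaneous injection, of dmPGE2 (a stable analogue of prostaglandin E2) or of ethanol in saline, 30 min before 8.53 Gy or no irradiation, and both sexes were used. For the dose, the labels state both 35 µg and 3.5 µL at 0.1 mg/ml, which would hold 0.35 µg. Non-irradiated vehicle mice gave 15 libraries, which by the labels are 8 at 1 h and 7 at 24 h, with 8 males and 7 females. Their sex-linked genes gave 10 males and 5 females, which goes against those labels. Their columns name no time, so the 15 were pooled here as the baseline. Non-irradiated dmPGE2 mice gave 7 libraries at 1 h. Irradiated vehicle mice and irradiated dmPGE2 mice gave 8 libraries each at 1 h and 8 each at 24 h. The 24 h columns name no radiation, and their irradiation was inferred from the labels.

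Each library held between 15049364 and 26217041 counts. CPM are counts per library size, scaled by TMM for single genes of the pathway and by the total count for marker genes and their sums. The HSC markers were present in every group: the group medians of Kit lay between 645 and 1605 CPM, and those of Fgd5 between 56.8 and 102 CPM. The 8 HSC markers summed to a median of 3784 CPM at the baseline, 2446 in irradiated vehicle HSC at 24 h and 3074 in irradiated dmPGE2 HSC at 24 h. In the test described below, radiation with vehicle at 24 h lowered 7 of the 8 and raised 1, where 49.7% of all genes were called. Of 9 endothelial markers, Cdh5 reached at most 1.36 CPM in any library, while Pecam1 had a baseline median of 67.3 CPM, Emcn 40.5, Cldn5 15.9 and Kdr 9.82. The part of other cells in the levels of Thbd, Procr and F3 was not tested. The 15 baseline libraries form 2 sets by the numbers in their column names, of 8 and 7. All 7 tags of the second set also occur in the first. In 7 of 7 cases a library of the second set correlated best with the library of its own tag, and its sex-linked genes gave the same sex. The second set may therefore be repeat libraries of the same mice, which the sources used here do not settle, and p-values against the baseline count them as 15 replicates. Results were repeated with the libraries of a tag summed, which leaves 8. At 24 h, libraries 5, 6 and 7 of the irradiated dmPGE2 mice, all male, stood apart on the second principal component (39.3 to 71.7, against at most 26.9 for any library of another group). Results that rest on them are given with and without them.

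Of the 8 genes, F3 lies on chromosome 3, Thbd and Procr on chromosome 2, Plaur on 7, Plau on 14, Plat on 8, and F2r and F2rl2 both on 13 with 78.5 kb between them (mm10). F2r and F2rl2 each have 2 exon blocks in the table and Thbd has 1, while Plat has 14. Promoter windows were found for 5 of the 8 in RefSeq (GRCm38.p6, the assembly of mm10): F3, Procr, Plaur, F2r and F2rl2. The 250 bases before the RefSeq start site of F3 (chr3:121723287-121723536, plus strand) and Plaur (chr7:24462233-24462482, plus strand) are printed because these genes rose together within 1 h of dmPGE2. Capitals mark matches to AP-1 (TGANTCA) and, in Plaur, to EGR (GCGNGGGCG).
F3: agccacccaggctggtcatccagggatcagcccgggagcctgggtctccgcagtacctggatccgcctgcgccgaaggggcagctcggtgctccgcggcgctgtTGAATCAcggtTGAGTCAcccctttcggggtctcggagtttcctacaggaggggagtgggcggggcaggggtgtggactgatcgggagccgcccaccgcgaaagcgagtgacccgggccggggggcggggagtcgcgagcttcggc
Plaur: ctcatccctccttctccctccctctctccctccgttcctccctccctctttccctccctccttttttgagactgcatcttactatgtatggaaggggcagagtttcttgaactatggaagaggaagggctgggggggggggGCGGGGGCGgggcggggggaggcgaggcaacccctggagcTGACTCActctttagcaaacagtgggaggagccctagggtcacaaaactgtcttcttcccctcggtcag
Both strands were searched for AP-1 and EGR, the CRE letters TGACGTCA and their part TGACG (17.9% of windows), the NF-kB letters GGGNNTTCC (4.9%), the CCAAT box (34.5%), the cell cycle element TTTGAA (16.3%), the GC box GGGCGG (32.9%) and the TATA letters TATAAA (13%). F3 held 2 AP-1 matches, 140 to 146 and 129 to 135 bases before the start, and Plaur held 1 at 63 to 69 bases. AP-1 letters occur in 6.9% of 27025 promoter windows of this length. The EGR match in Plaur overlaps 2 GC box matches, and 4.7% of windows hold EGR letters. Each of the 5 windows held at least 1 AP-1 match, those of Procr, F2r and F2rl2 included. The CRE letters were in none of the 5 windows and in 1.6% of all windows, which says only that these letters are not in these bases. Their part TGACG was in Procr, 199 to 203 bases before the start. The cell cycle element was in F2rl2, 225 to 230 bases before it, and GC boxes were also in F3 and F2r.

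Of the 8 genes, 7 passed the filter on low counts, and Plau did not. Genes were called at an adjusted p below 0.05 in edgeR's quasi-likelihood test over 14320 genes. Without radiation, dmPGE2 changed 2 of the 7 at 1 h, where 11.1% of all genes were called. With radiation at 24 h it changed 4, where 23.9% were called. Radiation with vehicle changed 3 at 1 h against 16% of all genes. At 24 h it changed 4, against 49.7%, so that calls were common among all genes there. Irradiated vehicle HSC at 24 h differed from those at 1 h in 4 of the 7, against 50.9%. Irradiated dmPGE2 HSC at 24 h differed from the baseline in 5, against 36.4%. Radiation under dmPGE2 at 1 h changed 0 of the 7 in edgeR and in DESeq2, with 0 at an unadjusted p below 0.05, against 0.377% of all genes. In the contrast that chose the genes, dmPGE2 with radiation at 1 h, 4 of the 7 passed the same threshold beside 14.8% of all genes, and nothing is read from that count. Several comparisons share libraries: the baseline enters 4 of them, and the irradiated vehicle libraries enter those of dmPGE2, of radiation and of time. The irradiated libraries at 1 h, with vehicle and with dmPGE2, are those of the contrast that chose the genes. Tests of radiation at 1 h, of radiation under dmPGE2 and of time are therefore not independent of that choice. Comparisons of 24 h libraries with the baseline or with 1 h also fall on the split of the columns described above.

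At the baseline, the order of the genes per kilobase of exon was Procr with a median of 79 CPM per kb, F2r with 48.8, Plaur with 8.44, Thbd with 3.73, F2rl2 with 2.56 and F3 with 0.0224, while Plau and Plat had a median of 0. With dmPGE2 at 1 h this order changed. Plaur had 298 CPM per kb without radiation and 405 with it, above Procr at 89.7 and 88.7, and F3 had 5.33 and 12.9.

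**Figure D1:**
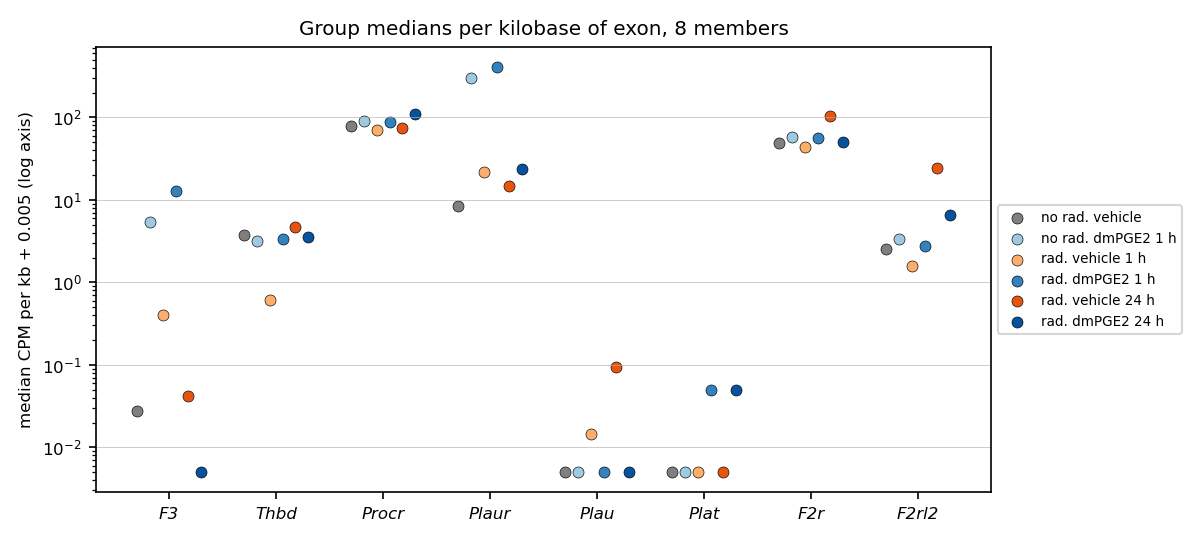
Median CPM per kilobase of exon (log axis, 0.005 added) of the 8 genes in the 6 groups, 1 point per group median. Plaur and F3 are highest in the 2 dmPGE2 groups at 1 h, F2r and F2rl2 are highest in irradiated vehicle HSC at 24 h, and Plau and Plat stay near the foot of the axis.

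F3, the starter of coagulation, was close to undetected in untreated HSC and rose most of the 8 genes. The 15 baseline libraries held 37 F3 reads in all, with 5 libraries at 0, a median of 0.0420 CPM and a highest value of 0.308. Non-irradiated dmPGE2 libraries at 1 h held 8.61 CPM at the lowest, 9.99 at the median and 16.5 at the highest. Every dmPGE2 library thus lay above every baseline library. F3 rose by 6.70 on the log2 scale (SE 0.63, edgeR adjusted p = 3.00e-12, higher in 7 of 7 libraries), and with the baseline libraries of a tag summed it was 6.72 (adjusted p = 1.55e-08).

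Radiation alone also raised F3 at 1 h, to a much lower level. The irradiated vehicle libraries ran from 0.139 through a median of 0.735 to 1.44 CPM, and they overlap the baseline only at their low end. The log2 fold change was 2.85 (SE 0.64, edgeR adjusted p = 0.000800), in libraries that are also the controls of the contrast that chose the genes. Irradiated dmPGE2 libraries at 1 h held 15.1, 24.3 and 40.0 CPM at the lowest, median and highest, all above every irradiated vehicle library. As a description, this is a log2 difference of 5.01 (SE 0.70) from irradiated vehicle HSC. Between irradiated and non-irradiated dmPGE2 HSC the log2 difference was 1.15 (95% interval -0.05 to 2.36, edgeR adjusted p = 1.00), and a fit on these 2 groups alone called it (1.14, adjusted p = 0.0140).

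By 24 h F3 had returned to a few reads per library. Irradiated vehicle libraries ran from 0 to 0.985 CPM with a median of 0.0684. Irradiated dmPGE2 libraries had a median of 0, with 5 of 8 at 0, and a highest value of 2.13 in library 5. The 2 groups overlap, and the log2 difference was 0.26 (95% interval -1.17 to 1.70, edgeR adjusted p = 0.835). Against the baseline, F3 was called at 24 h with vehicle (1.65 on the log2 scale, SE 0.71, edgeR adjusted p = 0.0468) and with dmPGE2 (1.92, SE 0.70, adjusted p = 0.0259), on 58 and 65 reads over 8 libraries each. Neither call held with the baseline libraries of a tag summed (adjusted p = 0.0747 and 0.0501), and without libraries 5, 6 and 7 the dmPGE2 value was 0.65 (adjusted p = 0.581).

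**Figure D2:**
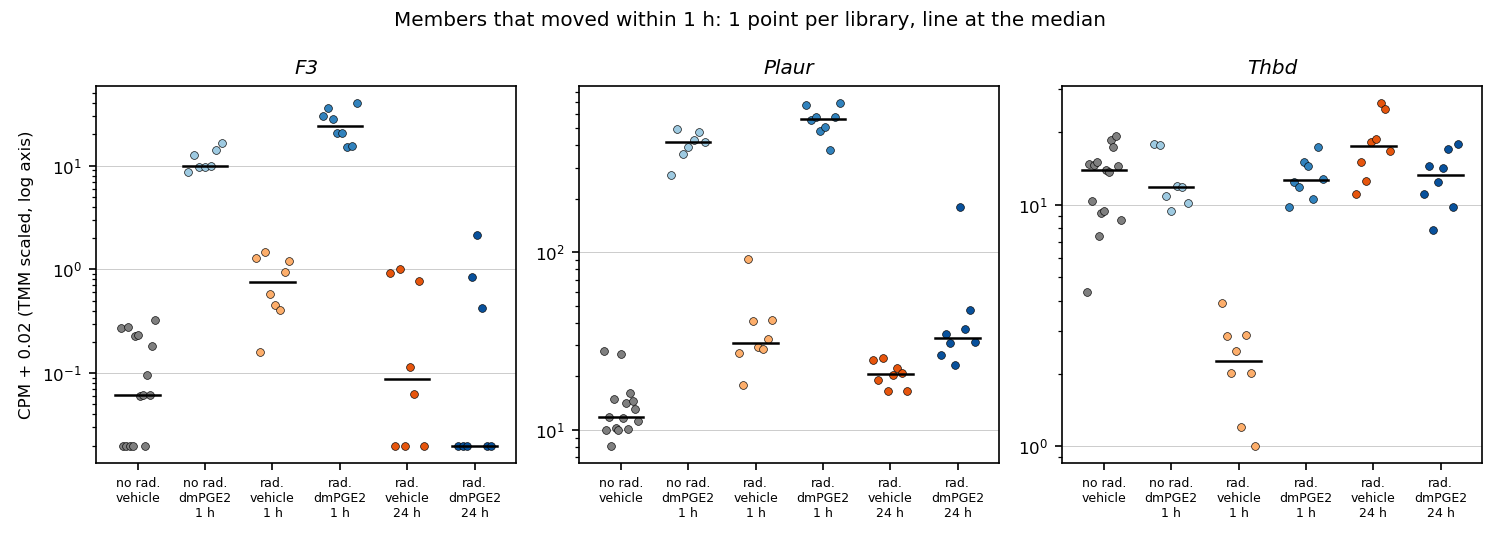
CPM (log axis, 0.02 added so that 0 can be drawn) of F3, Plaur and Thbd in each library of the 6 groups, with a line at the median. F3 and Plaur in the 2 dmPGE2 groups at 1 h lie above all other libraries, and Thbd in irradiated vehicle HSC at 1 h lies below all others.

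Thbd, whose product draws thrombin into the anticoagulant protein C pathway, fell within 1 h of radiation in vehicle mice. Baseline libraries held 4.34 to 19.2 CPM with a median of 13.9, and irradiated vehicle libraries at 1 h held 0.986 to 3.91 CPM with a median of 2.23. The ranges do not overlap. Thbd fell by 2.48 on the log2 scale (SE 0.23, edgeR adjusted p = 7.21e-13, lower in 8 of 8 libraries), a 5.57-fold decrease, and by 2.54 with the baseline libraries of a tag summed. These irradiated vehicle libraries are also the controls of the contrast that chose the genes, so this test is not independent of that choice.

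Thbd in irradiated dmPGE2 HSC at 1 h lay within the baseline range. They held 9.71 to 17.2 CPM with a median of 12.6, above every irradiated vehicle library, and the described log2 difference was 2.51 (SE 0.25). Without radiation dmPGE2 left Thbd at 9.39 to 17.8 CPM with a median of 11.8, a log2 difference from the baseline of 0.012 (95% interval -0.40 to 0.42, edgeR adjusted p = 0.988). Radiation under dmPGE2 gave 0.020 (interval -0.45 to 0.49, adjusted p = 1.00). The dmPGE2 difference was thus 2.5 larger with radiation than without it on the log2 scale (SE 0.33), given as a description.

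At 24 h the fall was gone. Irradiated vehicle libraries held 11.1 to 26.3 CPM of Thbd with a median of 17.4, all above the 1 h libraries, and the rise from 1 h was 2.98 (SE 0.25, edgeR adjusted p = 1.48e-14). Those 1 h libraries are again the controls of the contrast that chose the genes. Against the baseline the log2 fold change was 0.50 (SE 0.20, adjusted p = 0.0318), a call not held with the baseline libraries of a tag summed (0.45, adjusted p = 0.0920). Irradiated dmPGE2 libraries at 24 h held 7.81 to 17.7 CPM with a median of 13.3, overlapping both vehicle at 24 h (log2 difference -0.46, adjusted p = 0.142) and the baseline (0.038, adjusted p = 0.903).

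Procr, the protein C receptor by which HSC are often sorted, was the steadiest of the expressed genes. Baseline libraries held 87.8 to 166 CPM with a median of 119, and the medians of the other groups lay between 106 and 164. The described difference at 1 h with radiation was 0.28 (SE 0.18). In irradiated dmPGE2 HSC at 24 h the libraries ran from 99.4 through 164 to 254 CPM, and they overlap irradiated vehicle at 73.4 to 134. The log2 fold change was 0.60 (SE 0.18, edgeR adjusted p = 0.0131). The 4 male dmPGE2 libraries held 166 to 254 CPM and the 4 female ones 99.4 to 162. With vehicle, males held 88.6 to 134 CPM and females 73.4 to 123. Without the 3 male libraries that stand apart the log2 fold change was 0.26 (adjusted p = 0.454). The 9 endothelial markers summed to 207 to 238 CPM in those 3 libraries, against 107 to 155 in the other 5 and 92.2 to 112 with vehicle. The 8 HSC markers were also highest there, at a sum of 3471 to 4171 CPM against 2634 to 3221 in the other 5. The part of either list in the result was not tested. Against the baseline Procr rose by 0.42 (adjusted p = 0.0317), which also did not hold without the 3 libraries (0.085, adjusted p = 0.740) or with tags summed (0.44, adjusted p = 0.0688).

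Plaur, the urokinase receptor gene, moved from a low level to the highest per kilobase of the 8 genes within 1 h of dmPGE2. Baseline libraries held 8.10 to 27.7 CPM with a median of 11.8, and non-irradiated dmPGE2 libraries held 273 to 495 CPM with a median of 416. Every dmPGE2 library was above every baseline library. The log2 fold change was 4.86 (SE 0.27, edgeR adjusted p = 4.55e-20, higher in 7 of 7 libraries), a 29.0-fold rise, and 4.84 with the baseline libraries of a tag summed.

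Radiation alone raised Plaur at 1 h to a median of 30.7 CPM, with a lowest library of 17.8 and library 3 highest at 91.9. Only the low end overlaps the baseline. Plaur rose by 1.46 on the log2 scale (SE 0.25, edgeR adjusted p = 1.41e-05), in libraries that are also the controls of the contrast that chose the genes. The value lay between 1.15 and 1.57 with any 1 library left out. With both, the libraries held 377 to 692 CPM with a median of 565, which as a description is 3.85 (SE 0.32) above irradiated vehicle HSC. That difference was smaller by 1.01 (SE 0.39) than without radiation. Irradiated and non-irradiated dmPGE2 HSC overlap, with a log2 difference of 0.45 (interval -0.13 to 1.04, edgeR adjusted p = 1.00).

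Most of the Plaur rise was gone at 24 h. Irradiated vehicle libraries held 16.5 to 25.1 CPM with a median of 20.5, lower than at 1 h by a log2 fold change of -0.91 (SE 0.30, edgeR adjusted p = 0.00945). Without library 3 of the 1 h group that difference was -0.61 (adjusted p = 0.0681). Against the baseline that level was not called (0.56, SE 0.26, adjusted p = 0.0679), while a fit on these 2 groups alone called it (adjusted p = 0.0147). Irradiated dmPGE2 libraries held 23.0 CPM at the lowest, 32.9 at the median and 179 in library 5. The difference from vehicle was 1.31 (SE 0.30, adjusted p = 0.00106), and without libraries 5, 6 and 7 it was 0.50 (adjusted p = 0.222). Against the baseline, Plaur in these HSC was higher by 1.87 (SE 0.25, adjusted p = 3.91e-08), and by 1.06 without the 3 libraries (adjusted p = 0.000109). Monocyte markers, another source of Plaur, summed to a median of 757 CPM over 9 genes in non-irradiated dmPGE2 HSC and 741 in irradiated ones at 1 h, beside 825 at the baseline and 729 in irradiated vehicle HSC. Lyz2 made up most of each sum, with a median of 656 CPM in the non-irradiated dmPGE2 libraries. The part of these cells in the Plaur result was not tested.

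Plau and Plat, the 2 plasminogen activators, were near 0 throughout. Plau had 14 reads over the 15 baseline libraries and 1 read in all in each of the non-irradiated dmPGE2 and 24 h irradiated dmPGE2 groups. Its highest level was in irradiated vehicle HSC at 24 h, with 74 reads, a median of 0.212 CPM and at most 1.43. Plat was at 0 in 12 of 15 baseline libraries. It reached 6.70 CPM (123 reads) in library 5 of the 24 h irradiated dmPGE2 mice, where 4 of 8 libraries were at 0. These 4 were the female libraries, and the 4 male ones held 0.229 to 6.70 CPM. Plat was called against the baseline there (log2 fold change 4.31, SE 1.13, edgeR adjusted p = 0.00201), but not without libraries 5, 6 and 7 (2.06, adjusted p = 0.200). In the described contrast at 1 h Plat had a log2 difference of 4.28 (SE 1.55). No other Plat comparison passed the test, and at these read numbers smaller differences in Plau and Plat were not detectable.

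F2r, the gene of PAR1, was highest at 24 h after radiation in vehicle mice, with irradiated dmPGE2 HSC far below them. Baseline libraries held 141 to 229 CPM with a median of 161. Irradiated vehicle libraries at 24 h held 287 to 529 CPM with a median of 342, all above the baseline and above all libraries of every other group. The log2 fold change was 1.08 (SE 0.10, edgeR adjusted p = 2.00e-13, higher in 8 of 8 libraries), a 2.12-fold rise. Radiation at 24 h cannot be told apart here from the split of the columns.

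Irradiated dmPGE2 libraries at 24 h held 118 to 220 CPM of F2r with a median of 166, below every irradiated vehicle library. F2r was lower there by a log2 fold change of -1.14 (SE 0.12, edgeR adjusted p = 3.22e-09), and by -1.03 without libraries 5, 6 and 7 (adjusted p = 9.04e-07). Against the baseline the difference was -0.058 (95% interval -0.26 to 0.14, adjusted p = 0.700). At 1 h the groups overlap. The irradiated vehicle libraries held 126 to 168 CPM with a median of 146 (log2 difference from the baseline -0.25, adjusted p = 0.101, called at 0.0252 with upper quartile scaling). With dmPGE2, F2r had medians of 189 CPM without radiation (0.17, adjusted p = 0.375) and 185 with it, where the described log2 difference from irradiated vehicle HSC was 0.41 (SE 0.12).

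F2rl2, whose product PAR3 serves thrombin as a cofactor on mouse platelets, had a lower level and a wider range. Baseline libraries held 3.34 to 9.28 CPM with a median of 6.30, and irradiated vehicle libraries at 24 h held 32.5 to 105 CPM with a median of 60.1. The ranges do not overlap. F2rl2 rose by 3.39 on the log2 scale (SE 0.27, edgeR adjusted p = 1.46e-15, higher in 8 of 8 libraries), a 10.5-fold rise, and at 1 h the difference was -0.52 (adjusted p = 0.247). As for F2r, the 24 h value cannot be told apart from the split of the columns. The described difference between dmPGE2 and vehicle with radiation at 1 h was 0.62 (SE 0.32).

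Irradiated dmPGE2 libraries at 24 h held 1.95 to 41.7 CPM of F2rl2 with a median of 16.3. Library 4, the highest, overlaps the vehicle group, and library 7 is the lowest. F2rl2 was lower than with vehicle by a log2 fold change of -1.82 (SE 0.32, edgeR adjusted p = 3.80e-05), and by -1.52 without libraries 5, 6 and 7 (adjusted p = 0.00144). Unlike F2r it was called above the baseline, by 1.57 (SE 0.27, adjusted p = 4.75e-06). The ranges overlap, as library 7 lay below every baseline library (lowest 3.34 CPM). The dmPGE2 comparison and the radiation comparison at 24 h share the 8 vehicle libraries. F2rl2 lies inside Iqgap2, a gene of the opposite strand (chr13:95627177-95891922), with 0 of its exons overlapping. The kit marks no strand. Iqgap2, looked at after the values were seen, moved the other way at 24 h: -1.19 with radiation (adjusted p = 6.75e-10) and 0.55 with dmPGE2 (adjusted p = 0.00728). Its part in the reads of F2rl2 was not tested.

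**Figure D3:**
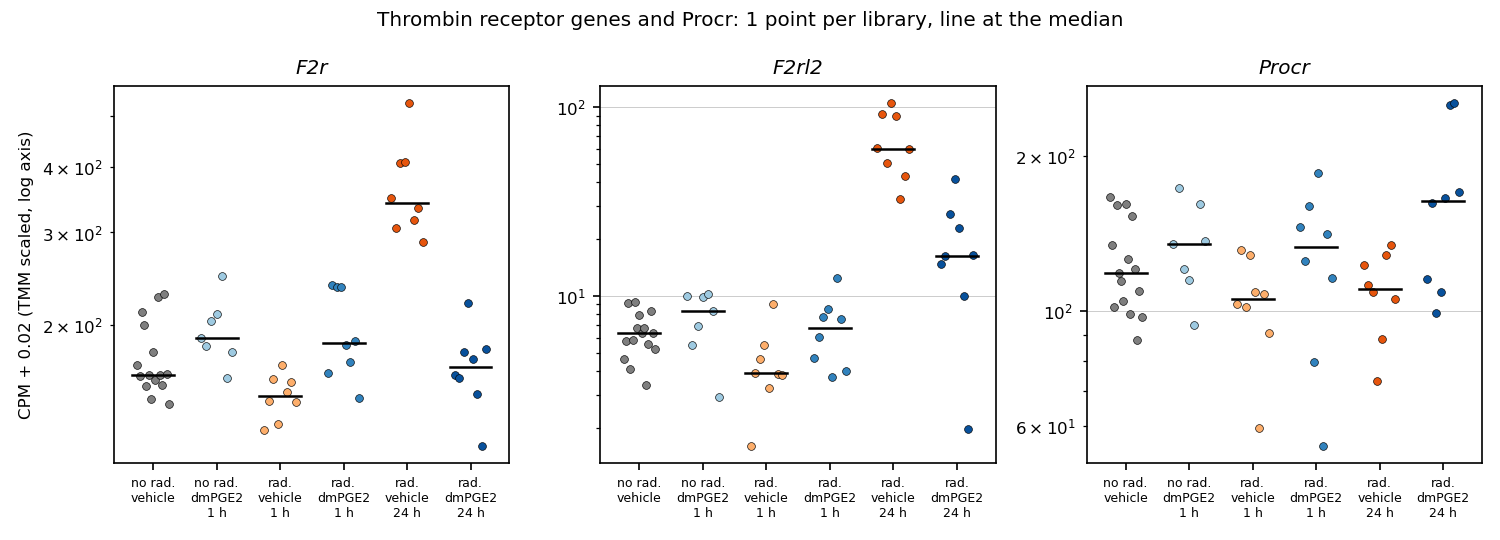
CPM (log axis, 0.02 added) of F2r, F2rl2 and Procr in each library of the 6 groups, with a line at the median. F2r in irradiated vehicle HSC at 24 h lies above all other libraries, F2rl2 there overlaps only the highest irradiated dmPGE2 library, and Procr ranges overlap between all groups.

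Some platelet and megakaryocyte genes moved with these receptors at 24 h. Of 7 markers tested, radiation with vehicle raised 4, Pf4, Itga2b, Gp1bb and Gp5, and dmPGE2 lowered 5. Gp1ba (-0.069), Gp9 (0.12) and Ppbp (0.46) did not pass the test with radiation, and Gp9 (-0.059) and Gp1bb (-0.71) did not with dmPGE2. The 8 megakaryocyte and platelet markers summed to 745 to 1630 CPM in irradiated vehicle HSC, against 269 to 481 at the baseline and 236 to 887 in irradiated dmPGE2 HSC. Pf4, a platelet chemokine gene, had medians of 229, 45.9 and 70.7 CPM in these groups, and Itga2b, the platelet integrin gene, had 508, 218 and 303. In bulk libraries a larger share of such cells and more RNA per cell cannot be told apart, and the part of these markers in the F2r and F2rl2 results was not tested. The sum of 7 T, B and NK genes was also higher in irradiated vehicle HSC at 24 h, at 92.5 to 193 CPM, than at the baseline, at 30.2 to 104.5. Nkg7 had the highest level of the 7 in both groups. Of the 6 tested, radiation with vehicle raised 1 and lowered 1 at 24 h, and 4 were not called.

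**Figure D4:**
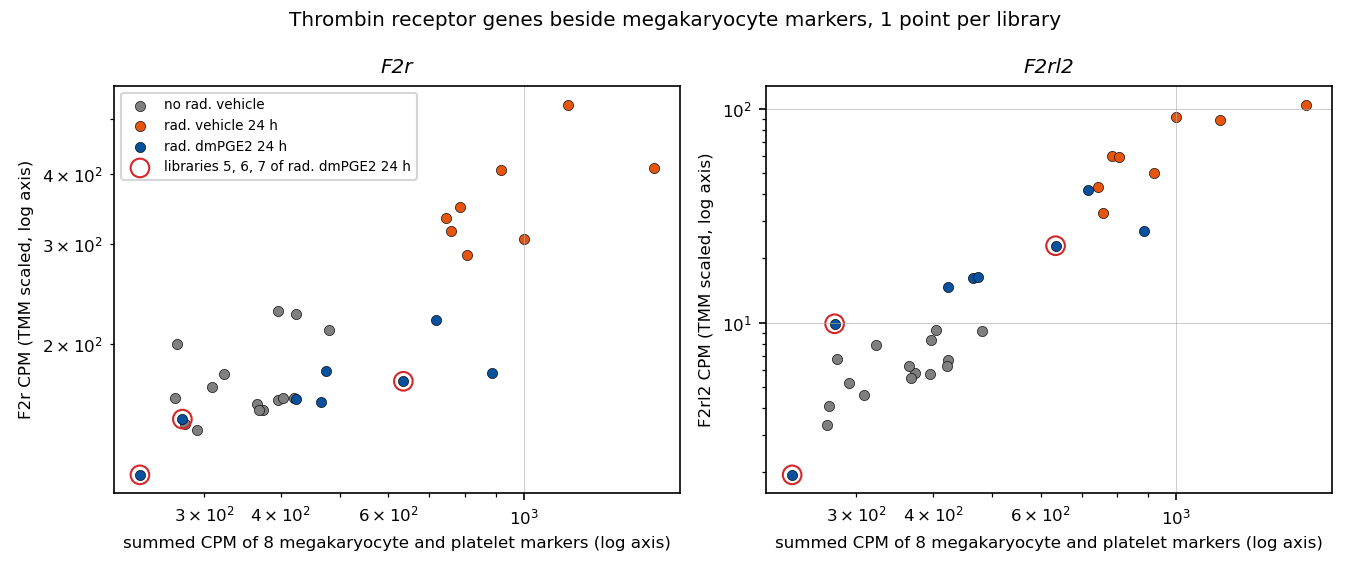
CPM of F2r and F2rl2 (log axes) against the summed CPM of 8 megakaryocyte and platelet markers in each library of the baseline and the 2 irradiated groups at 24 h, with libraries 5, 6 and 7 ringed. Vehicle libraries at 24 h lie at the upper right of both panels, with marker sums of 745 to 1630 CPM. Irradiated dmPGE2 library 3 has a marker sum of 887 CPM, above 4 of 8 vehicle libraries. Its F2r (178 CPM) and F2rl2 (27.0 CPM) lie below every vehicle library. Irradiated dmPGE2 library 4 has a marker sum of 718 CPM, and its F2rl2 (41.7 CPM) lies within the vehicle range.

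**Figure D5:**
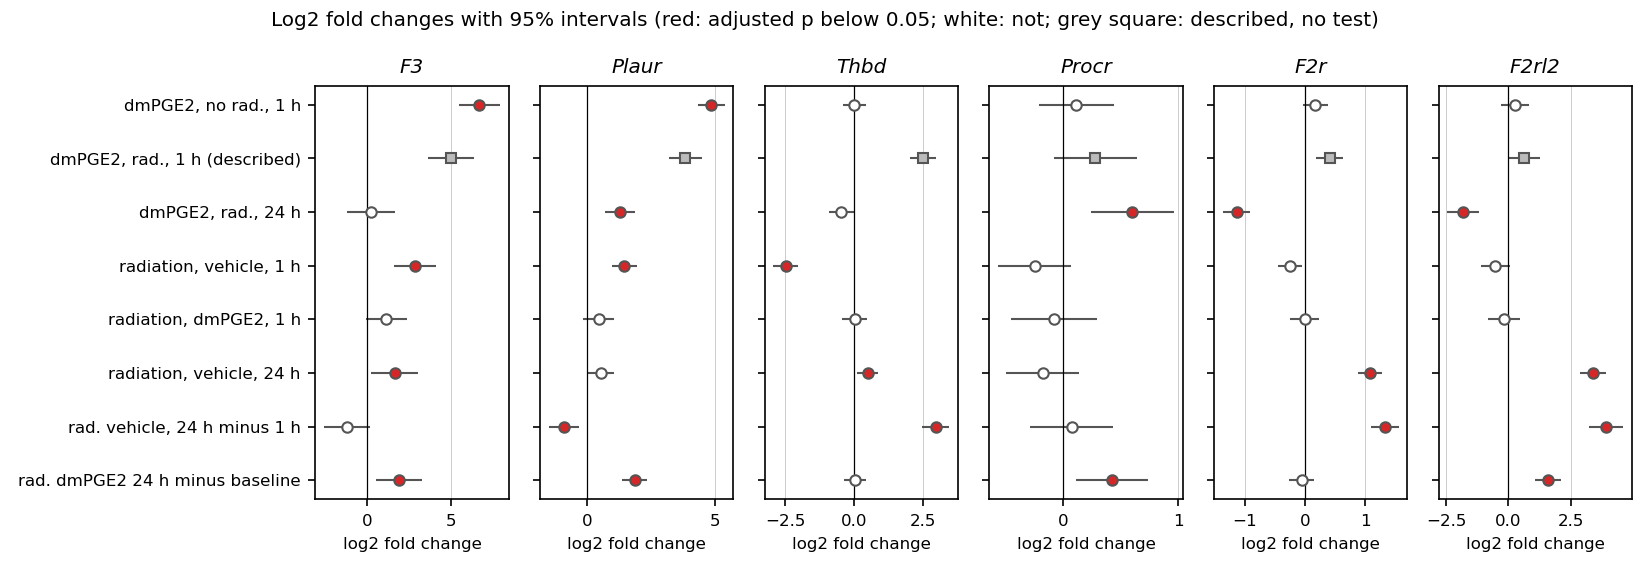
Log2 fold changes with 95% intervals of 6 genes in 8 comparisons (rows). Red points passed edgeR's adjusted p below 0.05, white points did not, and grey squares are the described contrast. F3 and Plaur stand highest with dmPGE2 at 1 h, Thbd is below 0 only with radiation and vehicle at 1 h among called values, and F2r and F2rl2 are above 0 with radiation at 24 h and below 0 with dmPGE2 at 24 h.

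Other genes of the pathway were taken from a list of 63 genes (coagulation factors, anticoagulants, fibrinolysis, and PARs with their partners), of which 40 could be tested. Without radiation, dmPGE2 raised 1 and lowered 2 of them at 1 h, where 11.1% of all genes were called (median log2 fold change -0.052, against 0.0049 over all genes). S1pr1, a receptor that acts downstream of protein C signalling, rose by 1.10 (edgeR adjusted p = 2.01e-05). The integrin gene Itgb3 fell by 0.96 and the G protein gene Gna11 by 0.44. S1pr1 had 157 to 181 CPM in these libraries and 58.6 to 97.7 at the baseline, with no overlap. In the described contrast, dmPGE2 with radiation at 1 h, 2 of the 40 were higher and 4 lower, beside 14.8% of all genes called (median -0.079, against 0.0096).

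Radiation with vehicle raised 4 and lowered 3 of the 40 at 1 h, where 16% of all genes were called (median 0.0042, against -0.0027). Lrp1, an endocytic receptor for protease and inhibitor complexes, rose by 1.03, Itgb3 by 0.84 and the G protein gene Gna13 by 0.54. S1pr1 fell by 0.97, F2rl3 by 0.81 and Vkorc1, the vitamin K cycle enzyme, by 0.37. F2rl3 encodes PAR4, the receptor through which thrombin activates mouse platelets, and it fell from a baseline median of 117 CPM to 68.8 (edgeR adjusted p = 6.58e-08). Radiation under dmPGE2 at 1 h changed 0 of the 40 in edgeR and DESeq2, with 0 at an unadjusted p below 0.05, beside 0.377% of all genes called (median -0.015, against 0.0061).

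Radiation with vehicle at 24 h raised 13 and lowered 11 of the 40, where 49.7% of all genes were called (median 0.035, against -0.063). Serpine2, an inhibitor of thrombin and plasminogen activators, rose by 6.44 (SE 0.22, edgeR adjusted p = 1.18e-30), from 3.25 to 15.7 CPM at the baseline to 736 to 971. Pros1 (protein S) rose by 2.37 and its relative Gas6 by 1.95. F13a1, the factor XIII subunit, fell by 4.16. Serpinb2, an inhibitor of urokinase, and Fpr2, a receptor of the urokinase receptor system, had 0 reads in all 8 irradiated vehicle libraries at 24 h. Against 3 reads over that group, Serpinb2 was at least 36.0-fold lower and Fpr2 at least 19.9-fold lower than at the baseline, where they had only 208 and 115 reads. F2rl3 rose by 0.98 (adjusted p = 1.91e-11), while F2rl1 (PAR2) was near 0 in every group. From 1 h to 24 h with vehicle 12 of the 40 rose and 12 fell, where 50.9% of all genes were called (median 0.14, against -0.062), led by Serpine2 at 5.89, Pros1 at 2.13 and Gas6 at 2.01. F13a1 fell by 4.98, and Serpinb2 and Fpr2 were at least 29.2-fold and 10.8-fold lower at 24 h. Without library 4 of the 1 h group, which held 65 of its 92 Serpinb2 reads, the Serpinb2 bound was 9.75-fold.

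At 24 h dmPGE2 raised 6 and lowered 4 of the 40 in irradiated HSC, where 23.9% of all genes were called (median 0.0013, against 0.028). F13a1 rose by 5.95 (SE 1.02, edgeR adjusted p = 3.07e-05), with 1.31 to 59.3 CPM against 0 to 1.63, and Lrp1 rose by 1.93. Fpr2 was at least 14.4-fold higher, on 40 reads, of which library 3 held 25. Without that library the bound was 6.18-fold, on 15 reads. Neutrophil markers summed over 9 genes to medians of 390 CPM at the baseline, 24.6 with vehicle at 24 h and 199.5 with dmPGE2 at 24 h, in overlapping ranges. The monocyte sums had medians of 825, 827 and 830 CPM in these groups, and Lyz2 had the highest level of the 9 genes in each. Csf1r, another of the 9, had medians of 23.3, 5.68 and 13.1 CPM. With dmPGE2 at 24 h, 2 of the 9 were called higher, Csf1r (1.18, edgeR adjusted p = 0.0232) and Ms4a6c (0.52, adjusted p = 0.0171). None was called lower, and 7 were not called. The part of such cells in the F13a1, Fpr2 and Serpinb2 results was not tested. Vwf, von Willebrand factor, fell by 0.71, S100a10, a plasminogen-binding protein gene, by 0.66 and Serpine2 by 0.62. F2rl3 fell by 0.42 (adjusted p = 0.00794), so that all 3 expressed PAR genes were lower with dmPGE2 at 24 h. Against the baseline, irradiated dmPGE2 HSC at 24 h had 16 genes of the list higher and 4 lower, where 36.4% of all genes were called (median 0.17, against -0.015). Serpine2 was higher by 5.82, Pros1 by 2.52 and Tfpi2 by 1.99. Vwf was lower by a log2 fold change of -0.98 and Arrb1 by -0.78, and Serpinb2 was again at 0 in all 8 libraries.

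For the 6 genes whose group means ranged over at least 1 on the log2 scale, which leaves out Procr and the untested Plau, the genes with the closest group means were found by the root mean square difference of centred log2 CPM over the 6 groups, leaving out genes whose mean log2 CPM was under 2. F3 was nearest to Nr4a1 (0.42), Klf2 (0.58) and Fos (0.69), where the median gene lay at 2.69. Plaur was nearest to Cebpb (0.39), Nr4a1 (0.43) and Fos (0.46), with the median gene at 2.07. These are transcription factor genes, and Nr4a1 and Fos are known as immediate early genes. Thbd was nearest to Il21r (0.32), Rab3a (0.39) and Dusp6 (0.45), with the median gene at 1.01. F2r was nearest to Cenpe (0.048), Rad51ap1 (0.062) and Spc24 (0.069), with the median gene at 0.48, and F2rl2 to Ifi27l2a (0.24), Ube2c (0.37) and Ccnb1 (0.38), with the median gene at 1.32. Cenpe, Spc24, Ube2c and Ccnb1 act in mitosis. Plat was nearest to Fam181b (0.22) and Tmem37 (0.25), with the median gene at 0.64, though Plat itself rests on few reads. These distances describe 6 group means and were not tested.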

How the data were processed

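The labels' protocols name the SMART-Seq v4 kit for cDNA and the Nextera XT kit for libraries, which mark no strand and add no molecular identifiers. Reads were aligned with STAR 2.5.2b and counted with featureCounts of Subread 1.5.1 on mm10, per the submitters' processing notes. What the authors deposited are unscaled whole-number read counts per gene, per the file headers. The strand setting was not given in the sources used here. Column names hold a treatment and a tag, and columns were matched to groups by name and group size. For 1 h this rests on the columns naming 24 h filling the irradiated 24 h groups. The columns naming 24 h name no radiation. Those with dmPGE2 were taken as irradiated because the labels give dmPGE2 at 24 h only with irradiation. Those with vehicle were taken as irradiated because the 15 non-irradiated vehicle columns fill the labels' 15 such samples. That step is not settled if the second baseline set holds repeat libraries.

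The test was that of edgeR 4.0.16 (R 4.3.3): filterByExpr (count minimum 10), TMM, robust quasi-likelihood over 54 libraries with 1 mean per group, and Benjamini-Hochberg adjustment over all 14320 genes. SE is the log2 fold change over the root of F, and intervals are 1.96 SE. DESeq2 1.42.0, other scalings and filters, left-out libraries, a replicate block, the libraries apart and summed baseline tags served as alternatives. CPM of single pathway genes are TMM scaled, and those of markers and their sums are scaled to the total count.

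The 8 genes and all lists were chosen with earlier results of these data known. Pathway genes are named where called and among the 3 that rose most or the 3 that fell most in a comparison. F2rl1, F2rl3 outside that rule and Iqgap2 were named after their values were seen. Nothing in the labels ties a library to a mouse beyond its sex and number, so p-values measure the spread between libraries. For Plat, 1 gene of like pattern is not reported here.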

Additional observations from a re-analysis of the deposited data

Results flagged for a closer look

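Each of the 8 genes was looked at in each group of 7 or 8 libraries, which gave 40 combinations with any variation. In 9 of the 40, 1 library lay farther from the rest than Dixon's 95% critical value allows. The combinations share libraries and are not independent. Chance gives about 1 in 20 for normally distributed values. That rate does not apply to the 3 combinations in which every other library was at 0 (Plau in non-irradiated dmPGE2 mice at 1 h and irradiated dmPGE2 mice at 24 h, and Plat in irradiated vehicle mice at 1 h). It is also not assured where many libraries were at 0. These were 6 of 8 for Plau in irradiated dmPGE2 mice at 1 h and for Plat in irradiated vehicle mice at 24 h. In irradiated dmPGE2 mice at 24 h they were 5 of 8 for F3 and 4 of 8 for Plat. Library 5 of the irradiated dmPGE2 mice at 24 h was the highest for 3 genes: F3 at 2.13 CPM (next 0.832), Plaur at 179 CPM (next 47.1) and Plat at 6.70 CPM (next 1.63). In irradiated vehicle HSC at 1 h, library 3 had 91.9 CPM of Plaur (next 41.7), and library 5 had 0.131 CPM of Plat on 3 reads. In irradiated vehicle HSC at 24 h, library 5 had 0.942 CPM of Plat. The Plau values set apart rest on 1 to 9 reads: 0.0440 CPM in library 2 of the non-irradiated dmPGE2 mice, 0.398 CPM in library 8 of the irradiated dmPGE2 mice at 1 h and 0.0497 CPM in library 3 of those at 24 h.

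The radiation effect with vehicle differed between 24 h and 1 h by edgeR's test of the 2 irradiated groups, which share their baseline. Thbd differed by 2.98 on the log2 scale, F2r by 1.33, F2rl2 by 3.91 and Plaur by -0.91.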

How the results depend on the processing

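The calls of F3 and Plaur with dmPGE2 without radiation, of Thbd, F3 and Plaur with radiation at 1 h, and of F2r and F2rl2 at 24 h kept their direction and their side of the threshold under all alternatives run. Testing against a fold change of 1.5 left 184 genes called for dmPGE2 without radiation, 266 and 273 for dmPGE2 with radiation at 1 h and 24 h, 326 and 1430 for radiation with vehicle at 1 h and 24 h, 18 for radiation under dmPGE2, 1964 for time and 719 for irradiated dmPGE2 at 24 h against the baseline. It also ended the calls of Plaur with dmPGE2 at 24 h (1.31, adjusted p = 0.0840) and over time (-0.91, 0.218), of Thbd (0.50, 1.00) and F3 (1.65, 0.230) with radiation at 24 h, of F3 with dmPGE2 against the baseline (1.92, 0.200), and of Procr with dmPGE2 at 24 h (0.60, 1.00) and against the baseline (0.42, 1.00).

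The tags of the column names served as a replicate block. Pairing was taken as given only if all same-tag pairs correlated above 0.1, and 45 of 65 did at 1 h and the baseline, 6 of 7 between the baseline sets (0 of 49 with different tags) and 0 of 8 at 24 h. The tags were therefore not used as pairs, although most pairs deviated together at 1 h. With the replicate block 2529 genes were called for dmPGE2 without radiation, 3421 and 1352 for dmPGE2 with radiation at 1 h and 24 h, 3547 for radiation with vehicle at 1 h and 95 for radiation under dmPGE2, and Plaur with dmPGE2 at 24 h had 0.94 (adjusted p = 0.0508), the only call of the 8 genes that it ended. It added those of F2r (-0.24, 0.0213) and F2rl2 (-0.60, 0.0176) with radiation at 1 h. For dmPGE2 with radiation at 24 h, 1507 genes were called with only the groups compared, 1815 with sex as a term and 1123 without libraries 5, 6 and 7, where Plaur had 0.50 (adjusted p = 0.222). F3 with dmPGE2 at 24 h against the baseline had 0.65 without them.

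The baseline sets and summed tags were added after seeing the data. With the first baseline set 1244 genes were called for radiation at 1 h, and with the second 3100 for irradiated dmPGE2 at 24 h. For radiation at 24 h, Thbd had 0.31 with the first set and 0.45 with tags summed, both not called. F3 had 1.58 with the first set, 1.74 with the second, 1.68 with tags summed, 1.61 with upper quartile scaling, 1.64 with no filter and 1.71 in DESeq2, all not called. For irradiated dmPGE2 at 24 h F3 had 1.85, 2.01 and 1.95 with the first set, the second and tags summed. Leaving out 1 library gave 0.40 to 0.56 for Thbd and 1.21 to 1.87 for F3 with radiation at 24 h, -1.01 to -0.61 for Plaur over time, and 0.73 to 2.13 for F3 with dmPGE2 at 24 h against the baseline, lowest without library 5. Leaving out library 5 of these mice also moved Plaur with dmPGE2 at 24 h to 0.68 (adjusted p = 0.0298). With no minimum on log2 CPM, Tnfaip6 (0.30) was nearest to Plaur, and Fos left its set. Hes5 (0.41) took the place of Dusp6 for Thbd, and Mrvi1 (0.29) that of Ccnb1 for F2rl2. The set of Plat changed too, while those of F3 and F2r did not. Scaling to total counts moved no group mean of the 8 genes by more than 1 SD. The depth limits Plau, Plat and, outside dmPGE2 at 1 h, F3.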
